A study of Mus musculus with 15 samples.

Results

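The genes described here are 10 markers of natural killer (NK) cells and other cytotoxic lymphocytes. They are *Gzma*, *Gzmb*, *Prf1*, *Nkg7*, *Klrb1c*, *Ncr1*, *Klrk1*, *Klrd1*, *Eomes* and *Tbx21*, and they were found by gene symbol among the 38924 genes listed for each library. All 10 were listed. Of these, 8 passed the filter on low counts, which 14967 genes passed in all. *Eomes* and *Tbx21* did not pass and were not tested.

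Expression was measured by RNA-seq in 15 libraries of CD11b+ cells sorted from the brains of wild type C57BL/6J male mice at 12 months of age. Cells were parted by the surface level of CD45, a protein of all leukocytes, into CD45hi cells, which hold blood-derived and other non-microglial myeloid cells, and CD45lo cells, which are mostly microglia. Mice had eaten a control chow diet (CD) throughout or a western diet (WD), rich in fat and sugar, from 2 months of age. There were 4 libraries of CD CD45hi cells, 4 of CD CD45lo cells, 3 of WD CD45hi cells and 4 of WD CD45lo cells. No group carried a transgene, a deletion or a drug. The study describes the deposited counts as being per animal. Which CD45hi and CD45lo libraries came from the same animal is not stated in the sources used here. The gating shown in the study took live CD45+ cells, kept those that were CD11b+ and CD3e-, a step that leaves out T cells, and parted them by CD45 level. No NK cell marker is named among the stains, and microglial genes were still measured in CD45hi libraries, as given below.

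NK cells are lymphocytes that kill infected, transformed or stressed cells without prior sensitization. They carry an array of activating and inhibitory receptors, many of them C-type lectins encoded side by side in the NK gene complex, and they kill by releasing granules in which the pore-forming protein perforin lets serine proteases called granzymes enter the target. The T-box transcription factors EOMES and T-BET direct their maturation. Mature mouse NK cells carry CD11b and high CD45, so a gate on these proteins does not by itself keep them out. Few NK cells are found in the healthy brain. Granzymes, perforin and NKG7 are shared with CD8 T cells, and some granzymes are also made by other cells.

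The total expected count ran from 11951412 to 17912272 per library. Values are given as counts and as cpm (the count scaled to the total of its library, after TMM normalization). The limit of detection was set at 3 counts per library, which was worth 0.156 to 0.282 cpm. A gene at 0 counts in a library may thus lie anywhere up to that level there. These limits and the counting intervals below cover counting error only. The intervals take counts summed over the libraries of a group, so they leave out the spread between libraries. The reads carry no molecular identifiers. In a principal component analysis of all tested genes, replicate 4 of the CD CD45hi cells (-93.0) and replicate 1 of the WD CD45hi cells (135) stood apart on the second component, where the other CD45hi libraries lay between -21.5 and -6.13. Results are given with and without both. Since the RNA is from bulk cells, fewer cells of a type and less RNA per cell cannot be told apart. The sources used here name 2 sequencers and do not tie libraries to them, so no values within a sequencing batch could be given.

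Across the 15 libraries these genes were largely a feature of CD45hi cells, at low levels and with large spread. The summed level of the 10 genes was 28.4 to 132 cpm in CD CD45hi libraries and 51.5 to 189 cpm in WD CD45hi libraries. In CD45lo cells it was 1.59 to 3.63 cpm on the CD and 0.918 to 6.01 cpm on the WD. On each diet every CD45hi library was therefore above every CD45lo library in the sum. Of the 10 genes, 6 to 8 were above 3 counts in any 1 CD45hi library, against 1 to 4 in a CD45lo library. The genes did not all rise and fall together from library to library. *Gzma*, *Klrb1c* and *Klrd1* were each highest in replicate 3 of the WD CD45hi cells, and *Gzmb* in replicate 4 of the CD CD45hi cells. Which gene was most abundant differed between CD45hi libraries.

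**Figure D1:**
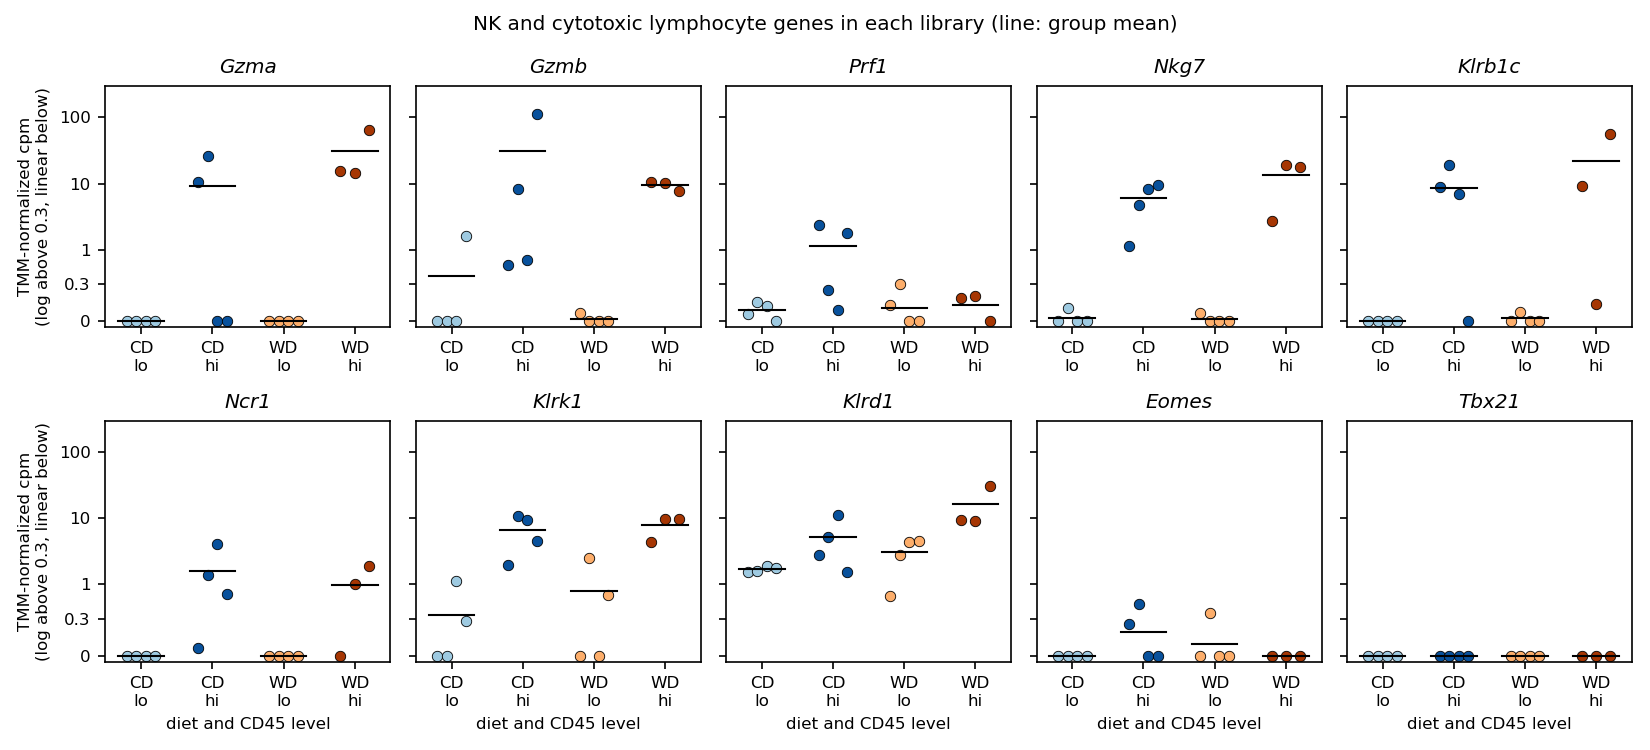
TMM-normalized cpm (vertical axis, logarithmic above 0.3 and linear below) of the 10 genes in every library of CD45lo (lo) and CD45hi (hi) cells on each diet (horizontal axis). Points are libraries and lines are group means. *Nkg7* in the 7 CD45hi libraries lay at or above 1.11 cpm while no CD45lo library exceeded 0.104 cpm, and *Tbx21* was at 0 in all 15.

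The promoters of the 4 genes that differed between the cell types in WD-fed mice are shown for context, since RUNX3, which binds the letters TGTGGT, was itself higher in CD45hi cells (below). Sequences are the 250 bases before the RefSeq start of each gene, written 5′ to 3′ on the strand of the gene on build GRCm38.p6 (mm10), less any base that GENCODE M21 counts as an exon. Capitals mark TGTGGT or its complement ACCACA.
Nkg7 chr7:43436888-43437072, plus strand: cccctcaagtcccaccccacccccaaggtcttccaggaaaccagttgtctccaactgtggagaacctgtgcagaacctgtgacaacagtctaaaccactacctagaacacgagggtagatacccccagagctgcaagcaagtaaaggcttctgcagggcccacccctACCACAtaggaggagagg
Gzma chr13:113100982-113101231, minus strand: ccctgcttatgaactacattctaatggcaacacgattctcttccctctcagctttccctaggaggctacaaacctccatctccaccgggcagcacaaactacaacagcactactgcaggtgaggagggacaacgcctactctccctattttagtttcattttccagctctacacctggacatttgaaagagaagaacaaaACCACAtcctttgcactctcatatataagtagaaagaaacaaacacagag
Gzmb chr14:56262335-56262584, minus strand: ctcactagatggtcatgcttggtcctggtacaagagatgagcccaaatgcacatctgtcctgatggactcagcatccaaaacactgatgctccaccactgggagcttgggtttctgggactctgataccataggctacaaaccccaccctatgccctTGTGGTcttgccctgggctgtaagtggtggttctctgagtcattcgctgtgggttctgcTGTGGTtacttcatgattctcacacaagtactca
Klrb1c chr6:128788642-128788886, minus strand: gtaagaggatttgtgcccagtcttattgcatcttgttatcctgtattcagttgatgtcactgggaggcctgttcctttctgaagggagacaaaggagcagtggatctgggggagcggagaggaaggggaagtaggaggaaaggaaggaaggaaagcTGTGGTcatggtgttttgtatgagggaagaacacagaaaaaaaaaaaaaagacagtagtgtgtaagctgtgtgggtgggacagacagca
RefSeq promoters were given for 9 of the 10 genes. TGTGGT on either strand was present in the 250 bases before the start in 7 of the 9, namely *Gzma*, *Gzmb*, *Klrb1c*, *Klrk1*, *Ncr1*, *Nkg7* and *Prf1*, and in 14.0% of all 32851 promoters of that length. The T-box letters GGTGTGA were found in 1 of the 9, *Nkg7*, 13 bases before the start, and in 3.33% of all promoters. The ETS letters GGAAGT were found in 3 of the 9, *Klrb1c*, *Prf1* and *Tbx21*, and in 19.7% of all promoters. The letters of the RUNX and T-box motifs can share GGT, but in these promoters no match of one motif overlapped a match of another. The match of *Nkg7* to the T-box letters lies in the exon bases not shown. The *Klrb1c* stretch lies inside the longer gene model of GENCODE, outside its exons. The counts out of 9 are of genes and the percentages are of promoters, and a gene can have more than 1 promoter, as *Ncr1* has. A match in letters is a description of the sequence and does not show binding. Whether RUNX3 acts on these genes was not tested.

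The granule proteases come first. *Gzma* (ENSMUSG00000023132, chromosome 13 of mm10, 113093825 to 113100981) encodes granzyme A, a serine protease of cytotoxic granules. It had 161, 319, 0 and 0 counts in the 4 CD CD45hi libraries, or 10.6, 26.4, 0 and 0 cpm. It had 162, 213 and 835 counts in the 3 WD CD45hi libraries, or 15.2, 14.3 and 64.0 cpm. All 8 CD45lo libraries were at 0 counts. *Gzma* was thus detected in 5 of the 7 CD45hi libraries and in no CD45lo library, and its 2 empty CD45hi libraries were both from CD-fed mice. Against the level of 3 counts it was at least 137-fold higher in WD CD45hi than in WD CD45lo cells and at least 50.1-fold higher in the CD groups.

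*Gzmb* (ENSMUSG00000015437, chromosome 14, 56258838 to 56262260) encodes granzyme B, the granzyme that starts apoptosis by cleaving caspases. It had 9, 101, 8 and 1761 counts in CD CD45hi libraries, or 0.59, 8.36, 0.704 and 113 cpm. In WD CD45hi libraries it had 111, 151 and 101 counts, or 10.4, 10.1 and 7.74 cpm. In CD45lo cells it had 28 counts in replicate 4 of the CD group, 1 count in replicate 1 of the WD group and 0 in the other 6 libraries. The WD CD45hi libraries were close to one another, at 9.44 ± 1.47 cpm (SD, n = 3), and the CD CD45hi libraries were not, at 30.8 ± 55.2 cpm (SD, n = 4). Replicate 4 of the CD CD45hi cells, 1 of the libraries that stood apart, held more *Gzmb* than the sum of the other 6 CD45hi libraries. In that library *Gzmb* made up 86.2% of the summed level of the 10 genes, while *Gzma* and *Klrb1c* were at 0 counts. The ratio of *Gzmb* in WD CD45hi to WD CD45lo cells, where 1 count was seen in all, was 566 (exact 95% interval of the counts 101 to 22400).

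*Prf1* (ENSMUSG00000037202, chromosome 10, 61297833 to 61304680) encodes perforin. It had 36, 3, 1 and 28 counts in CD CD45hi libraries, or 2.36, 0.248, 0.088 and 1.80 cpm, and 2, 3 and 0 counts in WD CD45hi libraries. CD45lo libraries had 0 to 4 counts. *Prf1* was therefore above 3 counts in only 2 of the 7 CD45hi libraries, both from CD-fed mice, and in 1 CD45lo library. The gene that makes the granzyme pore was at 0.130 ± 0.113 cpm in WD CD45hi cells (SD, n = 3), where *Gzma* was at 31.2 ± 28.4 cpm. On the length-scaled TPM values, which alone allow genes to be compared, *Prf1* was at 0.0867 ± 0.0751 TPM and *Gzma* at 57.8 ± 54.1 TPM there.

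*Nkg7* (ENSMUSG00000004612, chromosome 7, 43437073 to 43438249) encodes a membrane protein of cytotoxic granules that takes part in their release. It had 17, 58, 95 and 149 counts in CD CD45hi libraries, or 1.11, 4.8, 8.36 and 9.59 cpm. In WD CD45hi libraries it had 29, 282 and 236 counts, or 2.73, 18.9 and 18.1 cpm. Among the CD45lo libraries 1 on the CD had 2 counts, 1 on the WD had 1 count and the other 6 had 0. *Nkg7* was the only granule gene of these 4 above 3 counts in all 7 CD45hi libraries while every CD45lo library was at or under 3 counts. The ratio of CD45hi to CD45lo cells was 853 in WD-fed mice (exact 95% interval of the counts 152 to 33700) and 206 in CD-fed mice (56.7 to 1710).

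**Figure D2:**
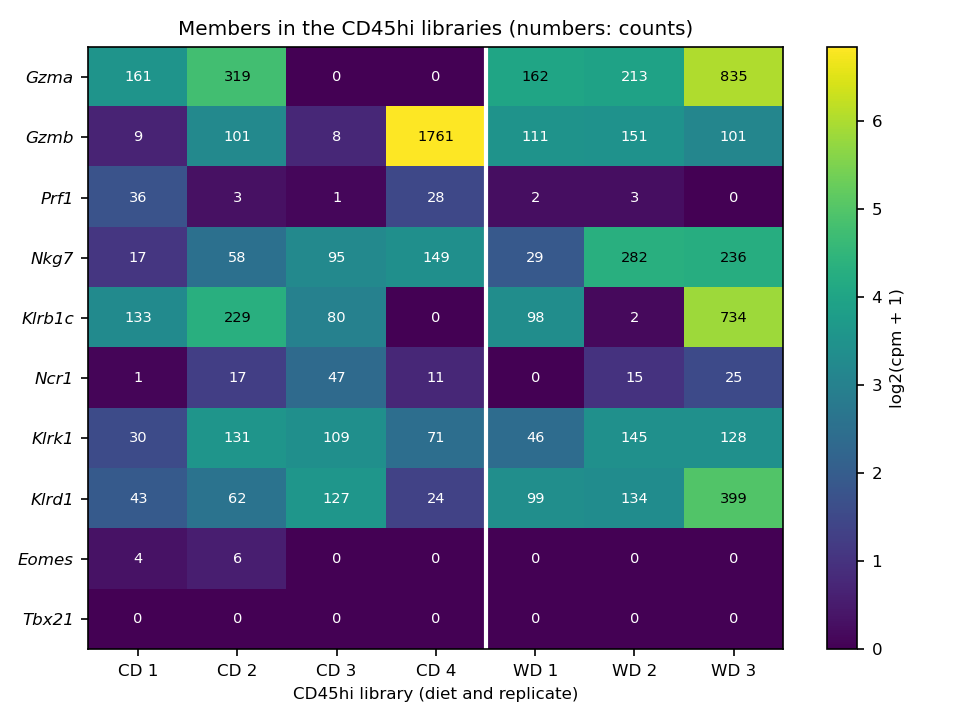
The 10 genes (rows) in the 7 CD45hi libraries (columns, diet and replicate), with colour for log2(cpm + 1) and the count written in each cell. *Gzmb* reached 1761 counts in CD replicate 4, where *Gzma* and *Klrb1c* were at 0, and *Gzma*, *Klrb1c* and *Klrd1* were highest in WD replicate 3, at 835, 734 and 399 counts.

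Among the receptors, *Klrb1c* (ENSMUSG00000030325, chromosome 6, 128778485 to 128789215) encodes NK1.1, the antigen by which NK cells are sorted in C57BL/6 mice. It had 133, 229, 80 and 0 counts in CD CD45hi libraries, or 8.72, 19.0, 7.04 and 0 cpm. In WD CD45hi libraries it had 98, 2 and 734 counts, or 9.22, 0.134 and 56.3 cpm. The CD CD45lo libraries were at 0 and the WD CD45lo libraries had 1 count in all. *Klrb1c* was above 3 counts in 5 of the 7 CD45hi libraries, with replicate 4 on the CD at 0 and replicate 2 on the WD at 2 counts. It was at least 47.1-fold higher in CD45hi than in CD45lo cells of CD-fed mice. The ratio in WD-fed mice was 1300 (exact 95% interval of the counts 233 to 51400). That interval takes summed counts, most of them from replicate 3 of the WD CD45hi cells, and leaves out the spread between libraries. GENCODE M21 lists another protein-coding gene model, *Gm44511*, over the same strand, so reads of both cannot be told apart where they overlap. Its count was fractional in 1 library, replicate 1 of the WD CD45hi cells, as was that of *Klrb1b*. With which gene the reads were shared was not tested.

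*Ncr1* (ENSMUSG00000062524, chromosome 7, 4337724 to 4345164) encodes NKp46, an activating receptor that is largely restricted to NK cells and related innate lymphoid cells. It had 1, 17, 47 and 11 counts in CD CD45hi libraries, or 0.0655, 1.41, 4.13 and 0.708 cpm, and 0, 15 and 25 counts in WD CD45hi libraries, or 0, 1.01 and 1.92 cpm. All 8 CD45lo libraries were at 0 counts. *Ncr1* was above 3 counts in 5 of the 7 CD45hi libraries. With *Gzma* it was the other of the 8 tested genes with no count in any CD45lo library, at least 8.56-fold higher in CD45hi cells of CD-fed mice and at least 4.29-fold higher in those of WD-fed mice.

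*Klrk1* (ENSMUSG00000030149, chromosome 6, 129610323 to 129623864) encodes NKG2D, an activating receptor for ligands that stressed cells display, which CD8 T cells can also carry. It had 30, 131, 109 and 71 counts in CD CD45hi libraries, or 1.97, 10.9, 9.59 and 4.57 cpm. In WD CD45hi libraries it had 46, 145 and 128 counts, or 4.33, 9.73 and 9.81 cpm. CD45lo libraries had 0, 0, 18 and 5 counts on the CD and 0, 34, 0 and 9 counts on the WD. *Klrk1* was present in all 7 CD45hi libraries, and on each diet all of them lay above every CD45lo library. The group means were 6.74 ± 4.18 against 0.348 ± 0.523 cpm on the CD (SD, n = 4 each), and 7.96 ± 3.14 (SD, n = 3) against 0.801 ± 1.19 cpm (SD, n = 4) on the WD.

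*Klrd1* (ENSMUSG00000030165, chromosome 6, 129591782 to 129598775) encodes CD94, which pairs with NKG2 proteins in receptors for a non-classical MHC molecule. It lies next to *Klrk1* in the NK gene complex. It had 43, 62, 127 and 24 counts in CD CD45hi libraries, or 2.82, 5.13, 11.2 and 1.54 cpm, and 99, 134 and 399 counts in WD CD45hi libraries, or 9.31, 8.99 and 30.6 cpm. CD45lo libraries had 26, 31, 31 and 31 counts on the CD and 10, 37, 80 and 59 counts on the WD. Unlike the other members, *Klrd1* was above 3 counts in all 8 CD45lo libraries, at 1.70 ± 0.166 cpm on the CD and 3.07 ± 1.79 cpm on the WD (SD, n = 4 each). The CD45hi and CD45lo libraries overlapped on the CD and did not on the WD.

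The transcription factors were at or near 0. *Eomes* (ENSMUSG00000032446, chromosome 9, 118478212 to 118486132) had 4 and 6 counts in replicates 1 and 2 of the CD CD45hi cells, 5 counts in replicate 2 of the WD CD45lo cells and 0 in the other 12 libraries. An antisense gene, *Gm33460*, overlaps *Eomes*, and the library kit named in the study does not mark strand, so reads of the pair cannot be told apart. *Tbx21* (ENSMUSG00000001444, chromosome 11, 97098071 to 97115331), which encodes T-BET, had 0 counts in all 15 libraries. At this depth a level of up to 0.156 to 0.282 cpm, by library, would have gone unseen.

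**Figure D3:**
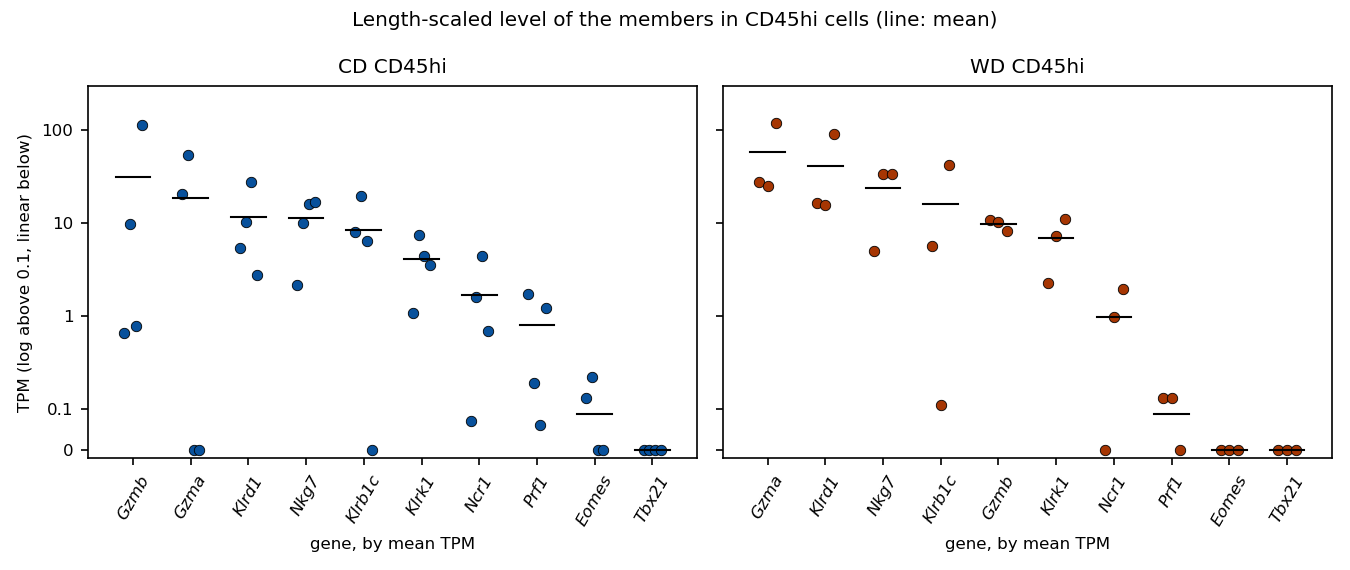
Deposited TPM (vertical axis, logarithmic above 0.1 and linear below), a level scaled for transcript length, of the 10 genes in CD45hi libraries of CD-fed (left) and WD-fed (right) mice, ordered by mean. Points are libraries and lines are means. The order ran from *Gzmb* (31.4 TPM) to *Tbx21* (0) on the CD and from *Gzma* (57.8 TPM) to *Eomes* and *Tbx21* (both 0) on the WD.

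By mean TPM in WD CD45hi cells the order was *Gzma* (57.8 ± 54.1), *Klrd1* (41.0 ± 43.2), *Nkg7* (24.1 ± 16.6), *Klrb1c* (15.9 ± 22.7), *Gzmb* (9.78 ± 1.36), *Klrk1* (6.86 ± 4.42), *Ncr1* (0.983 ± 0.985) and *Prf1* (0.0867 ± 0.0751; SD, n = 3 each). Each neighbour in this order overlapped the next in its libraries, except that all libraries of *Klrk1* lay above those of *Ncr1*. In CD CD45hi cells the order was *Gzmb* (31.4 ± 55.4), *Gzma* (18.7 ± 25.8), *Klrd1* (11.6 ± 11.4), *Nkg7* (11.3 ± 6.87), *Klrb1c* (8.48 ± 8.08), *Klrk1* (4.14 ± 2.66), *Ncr1* (1.70 ± 1.92), *Prf1* (0.795 ± 0.803) and *Eomes* (0.0875 ± 0.108; SD, n = 4 each). There all neighbours overlapped. The first place of *Gzmb* on the CD rested on replicate 4, with 114 TPM against 0.65 to 9.84 TPM in the other CD replicates.

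To ask which of these genes mark the cells of high CD45, CD45hi and CD45lo cells were compared within each diet with edgeR's glmTreat, which tests for a difference of more than 1.5-fold, at a false discovery rate (FDR) of 0.05 over the 14967 genes. In WD-fed mice 4 of the 8 tested members were higher in CD45hi cells and none was lower. These were *Nkg7* (glmTreat FDR = 0.000782), *Klrb1c* (glmTreat FDR = 0.0169), *Gzma* (glmTreat FDR = 0.028) and *Gzmb* (glmTreat FDR = 0.0298). Over all genes 4.01% were called higher in that comparison. The other 4 did not pass. *Klrd1* had a log2 ratio of 2.41 (SE 0.799, glmTreat FDR = 0.131) and *Klrk1* of 3.31 (SE 1.55, glmTreat FDR = 0.284). For *Ncr1* the FDR was 0.111 and for *Prf1*, with a log2 ratio of 0.28 (SE 1.63), it was 0.995. A member with no counts in CD45lo cells passed the filter on low counts only through its CD45hi libraries, so the share of tested members that was called is not by itself support for a difference.

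In CD-fed mice 2 of the 8 tested members were higher in CD45hi cells, *Nkg7* (glmTreat FDR = 0.00226) and *Klrb1c* (glmTreat FDR = 0.0209), against 3.39% of all genes. *Gzma* (glmTreat FDR = 0.0551) and *Gzmb* (glmTreat FDR = 0.0608) were close to the threshold and did not pass it. For *Ncr1* the FDR was 0.0873. The log2 ratio was 4.25 for *Klrk1* (SE 1.57, glmTreat FDR = 0.189), 3.61 for *Prf1* (SE 1.61, glmTreat FDR = 0.321) and 1.60 for *Klrd1* (SE 0.751, glmTreat FDR = 0.431). Counted by overlap, every CD45hi library was above every CD45lo library for 6 of the 10 genes in WD-fed mice (*Gzma*, *Gzmb*, *Nkg7*, *Klrb1c*, *Klrk1* and *Klrd1*), against 10% of the genes tested, and for 3 in CD-fed mice (*Nkg7*, *Ncr1* and *Klrk1*), against 8.26%. For *Klrb1c* in WD-fed mice the gap was between 2 counts and 1 count, and for *Ncr1* in CD-fed mice between 1 count and 0, both below the limit of detection.

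The calls depended on single libraries. In WD-fed mice *Nkg7* alone was called when any 1 of the 4 WD CD45lo libraries was left out, and *Gzmb* and *Nkg7* were called without replicate 3 of the WD CD45hi cells. In CD-fed mice *Nkg7* alone was called without replicate 1, 2 or 3 of the CD CD45lo cells, with *Gzmb* without replicate 4 of them, and again alone without replicate 2 of the WD CD45lo cells, which enters the shared estimate of spread. Without replicate 3 of the CD CD45hi cells 4 members were called. *Nkg7* was called in both comparisons in all 15 fits that left out 1 library. Without both CD45hi libraries that stood apart, *Gzma*, *Gzmb*, *Klrb1c* and *Nkg7* were called in WD-fed mice and *Gzma*, *Klrb1c* and *Nkg7* in CD-fed mice. The edgeR 4 form of the same test called *Gzma*, *Klrd1*, *Klrk1* and *Nkg7* in WD-fed mice and *Gzmb* and *Klrk1* in CD-fed mice, where the FDR of *Nkg7* was then 0.0551. Over the alternatives the FDR of *Nkg7* ran from 4.95e-09 to 0.0333 in WD-fed mice and from 7.78e-07 to 0.0551 in CD-fed mice.

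Genes of the NK cell programme that are not among the 10 were examined by fixed lists. Of 30 other NK receptors 18 were tested. In CD45hi cells 6 were called higher in WD-fed and 4 in CD-fed mice, and none was called lower. Over all genes 4.01% and 3.39% were called higher, the shares to set beside this and the following lists. Genes without counts in CD45lo cells again passed the filter only through CD45hi libraries. In WD-fed mice every CD45hi library was above every CD45lo library for 12 of the 30. For *Slamf6* every one was below, at 4.08 ± 2.43 (SD, n = 3) against 17.3 ± 2.64 cpm (SD, n = 4). *Slamf7*, a receptor of the SLAM family found on NK cells and on macrophages and B cells, was at 80.1 ± 54.3 cpm (SD, n = 3) against 1.01 ± 1.09 cpm (SD, n = 4) in WD-fed mice (log2 ratio 6.31, SE 0.967, glmTreat FDR = 0.000619) and 38.4 ± 27.8 against 1.18 ± 0.698 cpm in CD-fed mice (SD, n = 4 each; log2 ratio 5.02, SE 0.894, glmTreat FDR = 0.00262). *Cd244*, which encodes the CD48 receptor 2B4 and is also found on myeloid cells, had log2 ratios of 3.30 (SE 0.732, glmTreat FDR = 0.016) and 4.08 (SE 0.737, glmTreat FDR = 0.00324). *Cd226*, which encodes the activating receptor DNAM-1, was at least 59.0-fold higher in CD45hi cells of WD-fed mice (glmTreat FDR = 0.0227), where 1 CD45hi library had 376 counts and the lowest had 6. *Klrc2*, a partner of CD94, was called on both diets (glmTreat FDR = 0.00911 and 0.0132), and so was *Klrb1b*, an inhibitory receptor of the NK1.1 family (glmTreat FDR = 0.00406 and 0.00257). *Klrb1b* reached 823 counts in replicate 4 of the CD CD45hi cells, the library with 0 counts of *Klrb1c*. Some *Klra* receptors had fractional counts in WD CD45hi libraries, so reads were divided between these near-identical genes and their single values are uncertain.

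Of 16 other effector genes 6 were tested, and 2 were higher in CD45hi cells on both diets. *Srgn*, the proteoglycan core of granules in many leukocytes, was at 235 ± 127 (SD, n = 3) against 70.3 ± 12.5 cpm (SD, n = 4) on the WD (log2 ratio 1.74, SE 0.279, glmTreat FDR = 0.00398) and at 380 ± 108 against 70.3 ± 6.56 cpm in CD-fed mice (SD, n = 4 each; log2 ratio 2.44, SE 0.272, glmTreat FDR = 8.62e-05). *Ccl5*, a chemokine of NK and T cells that macrophages also make, was at 10.6 ± 4.88 (SD, n = 3) against 0.285 ± 0.245 cpm (SD, n = 4) in WD-fed mice (glmTreat FDR = 0.00791) and at 5.64 ± 4.08 against 0.23 ± 0.162 cpm in CD-fed mice (SD, n = 4 each; glmTreat FDR = 0.0157). The cytokine and ligand genes of killing that were read for context, *Ifng*, *Fasl* and *Xcl1*, were chosen after their values were seen and had at most 18, 39 and 33 counts in any library. They do not stand for the whole list. *Tnfsf10*, also listed, was not called. It was at 31.5 ± 18.4 (SD, n = 3) against 19.25 ± 4.03 cpm (SD, n = 4) in WD-fed mice. In CD-fed mice it was at 19.5 ± 20.6 against 21.2 ± 4.71 cpm (SD, n = 4 each).

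Among 25 genes of NK signalling and cytokine receptors 18 were tested. *Il2rg*, the common gamma chain, had a log2 ratio of 2.99 (SE 0.426, glmTreat FDR = 0.000557) in WD-fed and 3.04 (SE 0.413, glmTreat FDR = 0.00035) in CD-fed mice, and *Il18rap*, a chain of the IL-18 receptor, of 3.63 (SE 0.786, glmTreat FDR = 0.0129) and 3.55 (SE 0.757, glmTreat FDR = 0.013). *Il2rb*, the chain through which NK cells respond to IL-15, was higher in WD-fed mice, at least 13.1-fold (glmTreat FDR = 0.0196). *Cx3cr1*, which NK cells carry but microglia carry in excess, was lower in CD45hi cells on both diets (log2 ratio -0.99 and -0.95). Of 14 other NK transcription factors 11 were tested. *Runx3*, a factor of cytotoxic lymphocytes that some myeloid cells also express, was higher in CD45hi cells on both diets, at 25.6 ± 16.0 (SD, n = 3) against 0.167 ± 0.164 cpm (SD, n = 4) in WD-fed mice (log2 ratio 7.20, SE 1.14, glmTreat FDR = 0.000767) and 18.9 ± 7.69 against 0.366 ± 0.432 cpm in CD-fed mice (SD, n = 4 each; log2 ratio 5.64, SE 1.02, glmTreat FDR = 0.00295). In WD-fed mice 4 more were higher, among them *Id2* (log2 ratio 1.72, SE 0.377, glmTreat FDR = 0.0291), *Nfil3* (2.73, SE 0.658, glmTreat FDR = 0.0295) and *Ikzf3* (at least 223-fold, glmTreat FDR = 0.00283).

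Of 26 genes of ligands and cytokines that act on NK cells 22 were in the files and 16 were tested, of which 6 were higher in CD45hi cells of WD-fed mice and 4 in those of CD-fed mice. The classical MHC class I genes *H2-K1* and *H2-D1*, whose products inhibit NK cells, had log2 ratios of 1.59 (SE 0.179) and 1.76 (SE 0.153) in WD-fed mice and of 1.25 (SE 0.168) and 1.41 (SE 0.144) in CD-fed mice, with glmTreat FDR values from 1.81e-05 to 0.00499. *Cxcl9*, a chemokine that draws NK and T cells, was at 42.8 ± 17.9 against 0.457 ± 0.416 cpm in CD-fed mice (SD, n = 4 each; log2 ratio 6.52, SE 0.814, glmTreat FDR = 8.84e-05). *Clec2i*, which encodes a ligand of an NK1.1 family receptor, had a log2 ratio of 4.02 in CD-fed mice (SE 0.889, glmTreat FDR = 0.0155). *Cd48*, the ligand of 2B4, and *Clec2d*, a ligand of the inhibitory receptor of the same family, were higher in WD-fed mice (log2 ratio 1.40, SE 0.291, glmTreat FDR = 0.033, and 2.10, SE 0.391, glmTreat FDR = 0.00876).

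Markers of other cell types moved with the same contrast, and their values are given beside it. The gate was checked first. *Ptprc*, which encodes CD45, was at 1244 ± 78.1 (SD, n = 3) against 423 ± 56.3 cpm (SD, n = 4) in WD-fed mice (log2 ratio 1.56, SE 0.15, glmTreat FDR = 8.05e-05) and *Itgam*, which encodes CD11b, at 1786 ± 299 against 2028 ± 119 cpm (log2 ratio -0.18, SE 0.113, glmTreat FDR = 1). In CD-fed mice *Ptprc* was also called higher. *Itgam* was not called there, but each of its CD45hi libraries lay below every CD45lo library. The microglial gene *P2ry12* was lower in CD45hi cells and still at 1085 ± 158 cpm there in WD-fed mice (log2 ratio -1.66, SE 0.132, glmTreat FDR = 8.81e-06). The monocyte gene *Ccr2* (log2 ratio 3.74, SE 0.510, glmTreat FDR = 0.0003) and the neutrophil gene *S100a8* (log2 ratio 3.05, SE 0.581, glmTreat FDR = 0.00607) were higher in CD45hi cells of WD-fed mice, with log2 ratios of 4.55 and 3.56 in CD-fed mice. Over the lists, 6 of 9 neutrophil markers were higher on each diet and 3 and 4 of 6 tested monocyte markers on the WD and the CD. *Hdc*, the histidine decarboxylase of mast cells, basophils and neutrophils, was the single gene called of 5 tested mast cell and basophil markers, on both diets. Of 5 tested markers each, *Irf7* and *Spib* of the plasmacytoid dendritic cell list were higher on both diets and no innate lymphoid cell marker was called. Microglial markers were lower in CD45hi cells, 6 of 9 in WD-fed and 9 of 9 in CD-fed mice. The summed level was 521.7 to 897 cpm (WD) and 587.5 to 1187 cpm (CD) for monocyte markers in CD45hi libraries, 520.2 to 1185 cpm (WD) and 804 to 2632 cpm (CD) for neutrophil markers, and 60.5 to 97.6 cpm (WD) and 126 to 344 cpm (CD) for mast cell and basophil markers. Of the 9 mast cell and basophil genes, 6 were at 0 in every WD CD45hi library and 2 in every CD CD45hi library. Only 1 of the 9 was above 3 counts in every library of either group, so that sum does not measure the list as a whole.

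**Figure D4:**
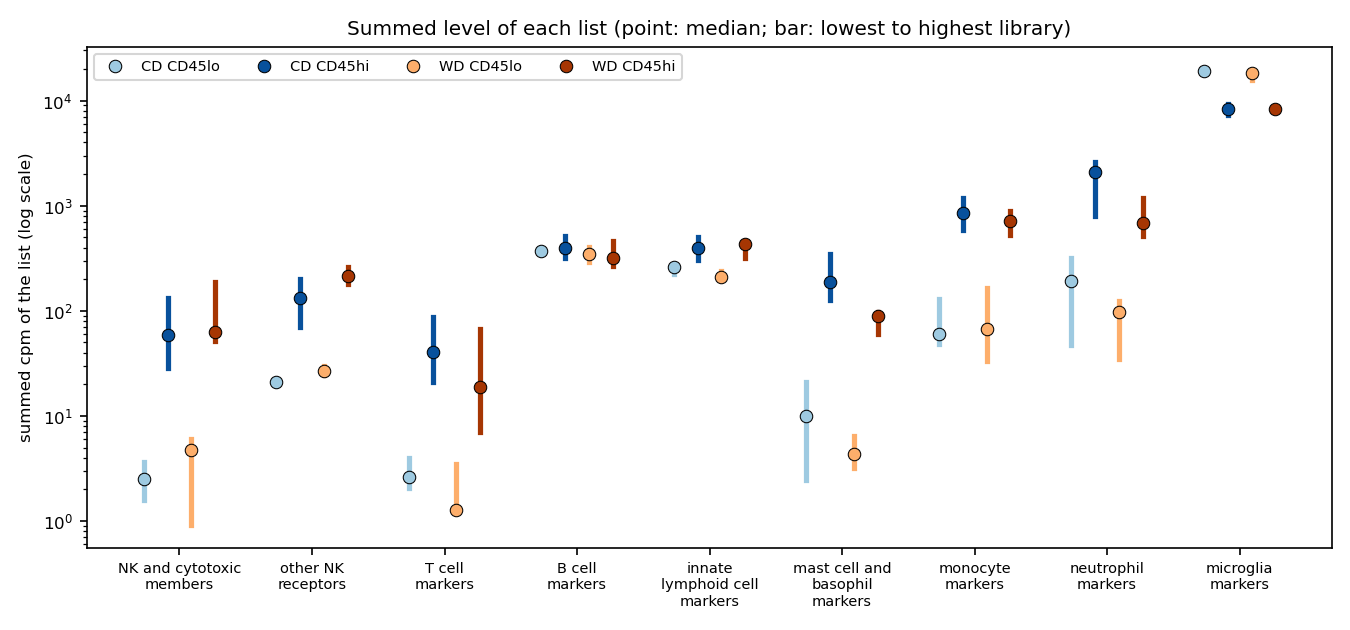
Summed cpm (vertical axis, logarithmic) of each gene list (horizontal axis), with the median library as a point and the lowest and highest library as the ends of a bar, for the 4 groups. The 10 NK and cytotoxic genes summed to at most 189 cpm and the neutrophil markers to as much as 2632 cpm in CD45hi libraries. The B cell sums of CD45hi and CD45lo libraries overlapped on both diets.

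T cells share the granule genes. The gate kept CD3e- cells, and T cell markers were read in the same libraries. *Cd3e*, which T cells need for their antigen receptor, had at most 4 counts in any library and was at 0 in all 3 WD CD45hi libraries. Of the other T cell receptor genes, *Trbc2* was at 0 in all 15 libraries, *Trac* had at most 1 count and *Cd3d* at most 9. *Cd3g* and *Trbc1* had at most 47 and 13 counts, in CD CD45hi cells. The T cell list summed to 21.03 to 86.8 cpm in CD CD45hi, 7.05 to 67.4 cpm in WD CD45hi, 2.08 to 3.94 cpm in CD CD45lo and 1.18 to 3.46 cpm in WD CD45lo libraries. *Cd4*, which mouse macrophages and dendritic cells can also express, was the 1 gene of that list called, on both diets (glmTreat FDR = 0.016 and 0.011). Of the other listed markers, *Cd28* had at most 298 counts and *Bcl11b* at most 48, both in WD CD45hi cells. *Cd28* was tested and not called, and both were named after their values were seen. The part of T cells, B cells, monocytes, neutrophils and mast cells or basophils in the levels of the 10 genes was not tested.

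To ask whether the diet changed these genes, WD and CD were compared within each cell type with edgeR's glmQLFTest, which tests for any difference. In CD45hi cells 0 of the 8 tested members differed, against 0.254% of all genes called, and 0 of the 8 had an unadjusted p under 0.05, as had 2628 of all genes. DESeq2 and limma-voom also called 0 members, and no gene of the other NK lists passed either. The largest log2 ratios in size were those of *Prf1* (-3.04, SE 1.77, glmQLFTest FDR = 0.388), *Gzma* (1.76, SE 1.61, glmQLFTest FDR = 0.621), *Gzmb* (-1.70, SE 1.57, glmQLFTest FDR = 0.615) and *Klrd1* (1.66, SE 0.786, glmQLFTest FDR = 0.285). *Klrb1c* was at 1.33 (SE 1.46, glmQLFTest FDR = 0.682), *Nkg7* at 1.15 (SE 1.01, glmQLFTest FDR = 0.59), *Ncr1* at -0.68 (SE 1.71, glmQLFTest FDR = 0.886) and *Klrk1* at 0.24 (SE 1.46, glmQLFTest FDR = 0.96). The CD and WD libraries overlapped in all 8. The standard errors ran from 0.786 to 1.77 on the log2 scale, so that differences of several fold could not be told from none. The sign for *Gzmb* turned on replicate 4 of the CD CD45hi cells, without which its log2 ratio was 1.55, and that for *Klrb1c* on replicate 3 of the WD CD45hi cells, without which it was -0.89.

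**Figure D5:**
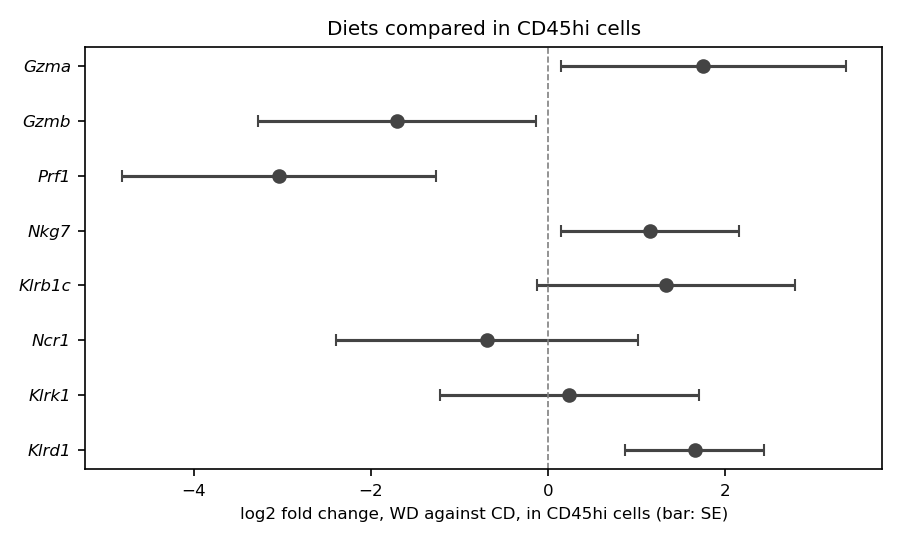
Log2 ratio of WD against CD in CD45hi cells (horizontal axis) for the 8 tested genes, from the edgeR fit, with bars of 1 SE. Points lie between -3.04 (*Prf1*) and 1.76 (*Gzma*), and none passed an FDR of 0.05.

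In CD45lo cells 0 of the 8 tested members differed between the diets, against 0.0% of all genes, of which 123 had an unadjusted p under 0.05 (edgeR glmQLFTest), and 0 of the 8 members did. DESeq2 called 4 genes in all and no member. *Klrd1* was at 3.07 ± 1.79 cpm on the WD and 1.70 ± 0.166 cpm on the CD (SD, n = 4 each), a log2 ratio of 0.85 (SE 0.740, glmQLFTest FDR = 1), and *Klrk1* had a log2 ratio of 1.19 (SE 1.43, glmQLFTest FDR = 1). The other members had at most 4 counts in all CD45lo libraries, except *Gzmb* with 28 and *Eomes* with 5 in 1 library each. Whether the gap between the cell types itself differed by diet was asked by a further test, since a call on 1 diet is not that test, and the interaction of diet and CD45 level was tested. It passed for 0 of the 8 members, against 0.00668% of all genes, and 0 of the 8 had an unadjusted p under 0.05, as had 1515 of all genes (glmQLFTest FDR of the members from 0.683 to 1). For *Gzma*, *Ncr1*, *Nkg7* and *Klrb1c*, whose CD45lo libraries were at or under 3 counts, the interaction has no usable size. The interaction on the log2 scale was 0.81 for *Klrd1* (SE 1.08) and -0.95 for *Klrk1* (SE 2.03).

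The genes whose level was most like that of the members were sought over the 7 CD45hi libraries, by Pearson's r between log2 cpm and the mean of the 8 tested members after each was standardized. The search took in 10148 genes with a mean of at least 5 cpm there, listed genes included. Outside the lists, the 8 most alike were *Gm3667* (r = 0.971), *Phf11b* (0.968), *5730455P16Rik* (0.964), *Coq2* (0.949), *Fam178a* (0.944), *Siah2* (0.943), *Cox7c* (0.939) and *Ppp1r21* (0.934). Spearman's rho for them ran from 0.857 to 0.964, and r without the 2 libraries farthest from the median ran from 0.684 to 0.988. *Coq2* encodes an enzyme of ubiquinone synthesis, *Siah2* a ubiquitin ligase and *Cox7c* a subunit of cytochrome c oxidase, and none of these is a known NK cell marker. Of the 8, *Gm3667*, *5730455P16Rik*, *Coq2*, *Fam178a* and *Ppp1r21* had a higher mean in CD45lo than in CD45hi cells. The 7 points share 2 diets and the sorting, and with so few libraries and so many genes a high r is to be had for some genes, so these are given as a description.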

How the data were processed

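The authors trimmed 75 bp paired-end reads of poly(A) libraries, aligned them with Bowtie2 through RSEM 1.2.12 to mm10, and deposited expected counts (not normalized, not always whole) and TPM per gene for 15 sorted samples. The annotation release is not given in the sources used here. The labels gave the diet and CD45 level that define the groups. Expected counts were rounded, a gene was tested where 2 or more libraries reached 1 cpm (14967 of 38924), and TMM and the legacy quasi-likelihood method of edgeR 4.0.16 (R 4.3.3) were applied to all 15 libraries in 1 fit. Between the cell types glmTreat at 1.5-fold was used, and between the diets and for the interaction glmQLFTest, at an FDR of 0.05. Each SE of a log2 ratio was worked back from glmQLFTest, also where the FDR is that of glmTreat. It is the size of the log2 ratio divided by the square root of its F statistic. Bounds use 3 counts in the CD45lo library where these weigh most. DESeq2 1.42.0 and limma 3.58.1 (voom) were alternatives. The code was tested on simulated data in which only better expressed genes were changed. That test does not cover genes at low counts or at 0 in a group, as most members are. Pairs of replicates differed by 20.6 to 135 chi-square per degree of freedom, so none was a repeat. Coordinates are from GENCODE M21 and promoters from RefSeq (GRCm38.p6). The 10 genes and all lists were chosen with earlier results of these data known. The genes named are the 10, up to 4 called genes of each list and comparison with the highest mean cpm, 7 fixed markers and the 8 genes most like the members. All deposited files were used. 1 gene that this rule names is not reported here.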

Additional observations from a re-analysis of the deposited data

Results flagged for a closer look

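In groups of 4 libraries, a library was looked at again where its gap to the nearest other, divided by the range of the group, exceeded Dixon's 95% critical value. Of 16 pairs of a gene and a group in which some library exceeded 3 counts, 3 were set apart in this way. Where all other libraries of the group are at 0, the gap equals the range and the flag is fixed. That was so for *Gzmb* in CD CD45lo cells and *Eomes* in WD CD45lo cells. The count of flags is therefore not set against a rate of chance. *Gzmb* in replicate 4 of the CD CD45hi cells was at 113 cpm, against 0.59 to 8.36 cpm in the other CD CD45hi libraries. *Gzmb* in replicate 4 of the CD CD45lo cells was at 1.59 cpm, with the other CD CD45lo libraries at 0. *Eomes* in replicate 2 of the WD CD45lo cells was at 0.371 cpm, with the others at 0. The WD CD45hi group has 3 libraries and was not examined in this way.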

How the results depend on the processing

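In WD-fed mice the number of members called between CD45hi and CD45lo cells, 4, ran from 1 to 4 with 1 library left out, and in CD-fed mice, where it was 2, from 1 to 4. In CD-fed mice 4 were called with the fold limit set after the test, with no filter on low counts and with a replicate block by either numbering, and 6 with DESeq2. With the block by sample titles 3 were called in WD-fed mice and 4 with that by file names. Same-numbered libraries deviated together by r of -0.0217 to 0.0695 across genes, so the numbers were not taken to pair them. The members called between the diets and for the interaction stayed at 0 under each alternative run. The file-name block could not be fitted between the diets. Between the diets the title block joined libraries by replicate number alone. A number marks different mice on the 2 diets, so that block is an arbitrary grouping and its fits between the diets are given as a description. The cause of these shifts was not tested.

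Over all genes, 775 calls in WD-fed mice became 1335 with the later fold limit, 398 and 353 with the replicate blocks, 513 to 515 without WD CD45lo replicate 1 or 3, and 2296 with DESeq2. In CD-fed mice 595 became 1162 and 1794 with the later limit and DESeq2, and 417 and 412 with the blocks. In CD45hi cells 38 calls between the diets became 252 with the edgeR 4 form, 2 with the title block, 0 with the compared groups alone, 1030 with DESeq2, 1 with a fold limit in the test, 290 without both libraries that stood apart, and 1 to 286 with 1 library left out. In CD45lo cells DESeq2 called 4 genes. The 1 interaction call became 0 with the edgeR 4 form, limma-voom and both blocks, 3 without both libraries that stood apart and 188 with DESeq2.

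Log2 ratios that turned their sign were all of members not called. With the title block they were -0.0429 (*Prf1*, cell types in WD-fed mice), 2.25 (*Gzmb*, diets in CD45hi cells), -0.431 (*Prf1*, diets in CD45lo cells) and 0.856 (*Klrk1*, interaction). With limma-voom they were 0.923 (*Gzmb*) and -0.0905 (*Prf1*) for the diets in CD45hi and CD45lo cells, and without both libraries that stood apart *Gzmb* was at 1.47. With 1 library left out, the ranges that crossed 0 were -0.194 to 1.41 for *Prf1* between the cell types in WD-fed mice; between the diets in CD45hi cells -2.11 to 1.55 for *Gzmb*, -0.893 to 2.06 for *Klrb1c*, -1.61 to 0.428 for *Ncr1* and -0.0659 to 0.568 for *Klrk1*; in CD45lo cells -0.839 to 0.732 for *Prf1* and -0.629 to 2.97 for *Klrk1*; and for the interaction -3.27 to 5.57 for *Gzmb*, -2.73 to 0.87 for *Klrk1* and -0.0217 to 1.52 for *Klrd1*.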
